A study of Mus musculus with 9 samples.

Results

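*Crisp1*, *Cd52*, *Adam7*, *Spink8*, *Ly6f*, *Npy*, *Ltf*, *Wfdc13*, *Wfdc15b* and *Rnase12* are 10 of the 32035 genes measured in whole mouse testis, and each is known from the epithelium of the epididymis. They were chosen by their measured values, because 1 *Kpna6*ΔIBB/ΔIBB library, replicate 3, holds most of the signal of each of them. Their shares in that library are therefore a description of the choice and not a result, and no test of them is given. All 10 were found in the tables of all 9 libraries.

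RNAseq was run on the whole testis of 9 mice, all 15 weeks old and on the C57Bl6/N background, with 3 controls (WT), 3 *Kpna6*ΔIBB/ΔIBB and 3 *Kpna6*-/- animals, to see what loss of importin α7 function changes in the testis. Importin α7, the product of *Kpna6*, carries proteins with a nuclear localisation signal into the nucleus together with importin β. In *Kpna6*ΔIBB/ΔIBB mice exon 2 is replaced, so that a truncated protein without the importin β-binding (IBB) domain can be made. In *Kpna6*-/- mice a gene trap sits in intron 1, and by the study's description germ cells still make the full-length protein from a promoter of their own, while Sertoli cells lack it. The controls carry neither allele. Each library holds the RNA of a whole testis with all its cell types, so that fewer cells of a type and less RNA per cell cannot be told apart.

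The epididymis is the coiled duct that sperm enter after leaving the testis through the rete testis and the efferent ducts. Its principal cells secrete proteins into the lumen, and the mix changes from the initial segment and caput at the testis end to the cauda. Many of these proteins bind to passing sperm, and many of the genes depend on androgens from the testis. Several belong to families whose other members are made by germ cells.

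The libraries held between 24859751 and 31484692 estimated counts on genes, so 3 counts, used here as the floor below which a gene is at or near 0, correspond to between 0.095 and 0.121 CPM, the unit used here for counts after scaling to equal library size. *Kpna6* itself had between 81.2 and 85.3 CPM in *Kpna6*ΔIBB/ΔIBB, between 201 and 333 CPM in WT and between 247 and 262 CPM in *Kpna6*-/- libraries. All 3 *Kpna6*ΔIBB/ΔIBB libraries were thus below the other 6, whereas a gene trap that leaves the germ cell transcript cannot be checked by the summed count. Markers of germ, Sertoli and Leydig cells were present in all 9 libraries.

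The members fall into secreted proteins, cell-surface proteins and small inhibitor or defence proteins. In build GRCm38 they lie on 7 chromosomes. *Crisp1* lies at chr17:40293758-40319207 on the minus strand, *Cd52* at chr4:134082448-134095082 on the minus strand and *Npy* at chr6:49822710-49829507 on the plus strand. *Ly6f* lies at chr15:75268421-75272235 on the plus strand. *Adam7* (chr14:68497336-68533741) and *Rnase12* (chr14:51056698-51057661) are both on the minus strand of chromosome 14, with 17.4 Mb between them. *Spink8* (chr9:109812280-109826633) and *Ltf* (chr9:111019271-111042767) are both on the plus strand of chromosome 9, with 1.19 Mb between them. *Wfdc15b* (chr2:164214454-164221660, minus strand) and *Wfdc13* (chr2:164685107-164687706, plus strand) are 0.463 Mb apart in the cluster of whey acidic protein genes. *Cd52* is on the chromosome of *Kpna6*, 4.41 Mb from it.

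For 6 of the 10 genes RefSeq (GRCm38.p6) gave a promoter window, from 250 bases before to 50 bases after the start of the gene. Because many genes of the duct depend on androgen, these windows were searched on both strands for AGAACA, the half-site of the androgen receptor's element, whose other strand reads TGTTCT. The windows of *Crisp1* and *Wfdc15b* held it, as did 19.0% of the 32851 windows of all genes. The matches are printed in the direction of the gene, with the half-site in capitals, at chr17:40319170-40319199 on the minus strand and chr2:164221779-164221808 on the minus strand. The first match begins 20 bases after and the other 133 bases before the start of the gene.
*Crisp1*: tcttcttcctgcAGAACAacgcctcattct
*Wfdc15b*: caatgccaccttTGTTCTctcgttttctcg
These letters are a description of the windows and not a measured binding site.

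Of the summed CPM of the 10 genes over the 9 libraries, 82.6% was in *Kpna6*ΔIBB/ΔIBB replicate 3. The sum was 157 CPM there and between 1.34 and 10.4 CPM in the other 8 libraries, with a median of 2.98 CPM. All 10 genes had at least 3 counts in this library, against between 3 and 7 of them in each of the other 8. The other *Kpna6*ΔIBB/ΔIBB libraries had sums of 2.67 CPM (replicate 1) and 6.94 CPM (replicate 2), so the genotype as a whole did not share the level of replicate 3. The highest sum among the other 8 belonged to *Kpna6*-/- replicate 1.

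**Figure D1:**
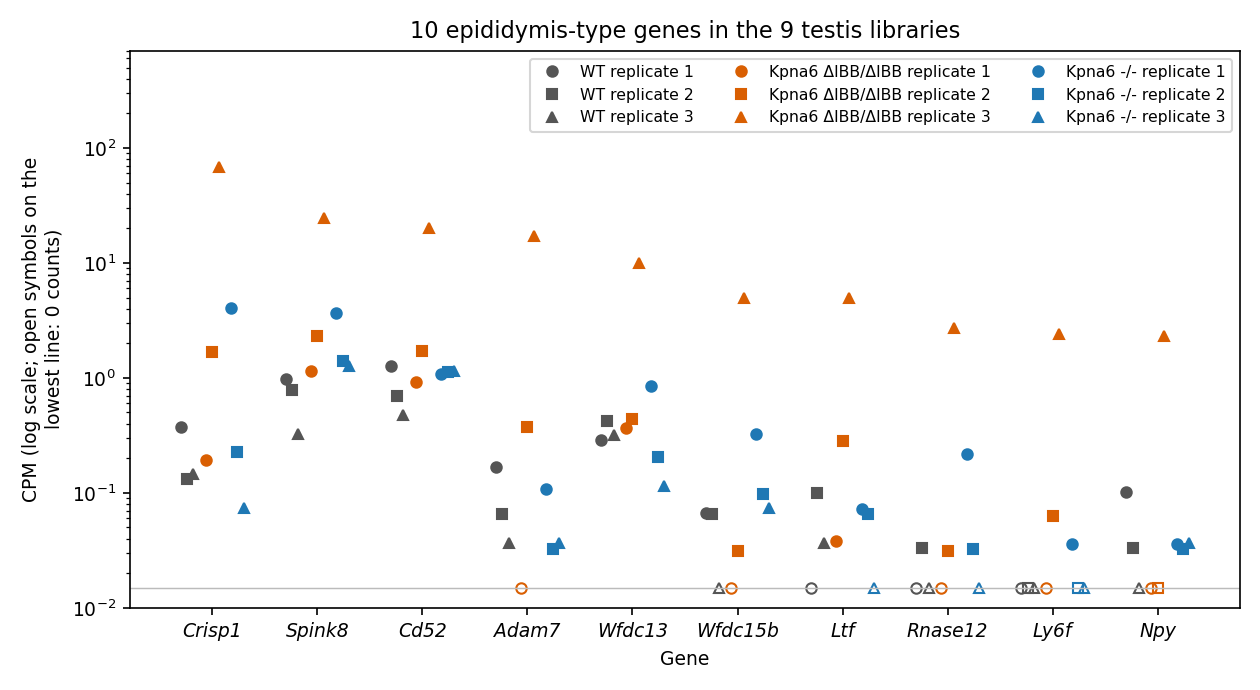
CPM of each of the 10 genes (log axis) in each of the 9 libraries, with colours for genotypes, symbols for replicates and open symbols for 0 counts. *Kpna6*ΔIBB/ΔIBB replicate 3 is the highest point of every gene, from 2.33 CPM for *Npy* to 67.6 CPM for *Crisp1*.

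Among the secreted proteins, *Crisp1*, a cysteine-rich protein that coats sperm in the epididymis, had the most counts. Its estimated counts were 11, 4 and 4 in WT, 5, 53 and 2150 in *Kpna6*ΔIBB/ΔIBB and 112, 7 and 2 in *Kpna6*-/- libraries, in the order of replicates 1, 2 and 3. *Kpna6*ΔIBB/ΔIBB replicate 3 stood 78.9-fold above the other 8 libraries combined (95% exact counting interval 68.2 to 91.7, which covers counting error only and not the spread between mice). *Crisp1* was also far above the remaining 6 libraries in *Kpna6*ΔIBB/ΔIBB replicate 2 and *Kpna6*-/- replicate 1, and the 3 genotypes overlapped. Its relative *Crisp2*, which spermatids make, had 1360 CPM in *Kpna6*ΔIBB/ΔIBB replicate 3 and between 1343 and 1735 CPM in the other 8 libraries.

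*Ltf* encodes lactotransferrin, an iron-binding protein of secretions and of neutrophil granules. It had 0, 3 and 1 counts in WT, 1, 9 and 159 in *Kpna6*ΔIBB/ΔIBB and 2, 2 and 0 in *Kpna6*-/- libraries. Outside *Kpna6*ΔIBB/ΔIBB replicate 3 only *Kpna6*ΔIBB/ΔIBB replicate 2 was above 3 counts. Of the 10 neutrophil markers, 5 had 3 counts or fewer in *Kpna6*ΔIBB/ΔIBB replicate 3. Of these, 3 had 3 counts or fewer in all 9 libraries, and *Ngp* and *Retnlg* had at most 5 and 4 elsewhere. Such low counts were thus not particular to *Kpna6*ΔIBB/ΔIBB replicate 3. The 10 markers summed to 74.2 CPM there against 79.3 to 189 CPM in the other 8 libraries. Most of this sum was *Lcn2* alone, with 65.9 CPM there and 67.8 to 179 CPM in the others.

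*Npy*, the precursor of neuropeptide Y and a transmitter of sympathetic nerves, had 3, 1 and 0 counts in WT, 0, 0 and 74 in *Kpna6*ΔIBB/ΔIBB and 1, 1 and 1 in *Kpna6*-/- libraries. It was at or near 0 in all libraries but 1. The summed level of 5 markers of sympathetic neurons was 1.53 CPM in *Kpna6*ΔIBB/ΔIBB replicate 3, within the 1.01 to 2.01 CPM of the other 8 libraries.

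*Rnase12* belongs to a cluster of ribonuclease A-like genes of the male tract and had 0, 1 and 0 counts in WT, 0, 1 and 87 in *Kpna6*ΔIBB/ΔIBB and 6, 1 and 0 in *Kpna6*-/- libraries. Only *Kpna6*-/- replicate 1 exceeded 1 count apart from *Kpna6*ΔIBB/ΔIBB replicate 3. *Rnase9*, 14829 bases from it and not among the 10, had 81 counts in *Kpna6*ΔIBB/ΔIBB replicate 3 and at most 3 elsewhere, while *Rnase10*, a caput gene, had 5.00 CPM there and 3.18 to 5.05 CPM in the other 8 libraries.

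The cell-surface proteins of the set differed in their level outside *Kpna6*ΔIBB/ΔIBB replicate 3. *Cd52*, a short GPI-anchored peptide that the epididymis passes to sperm and that lymphocytes also carry, had 38, 21 and 13 counts in WT, 24, 55 and 638 in *Kpna6*ΔIBB/ΔIBB and 30, 35 and 31 in *Kpna6*-/- libraries. It was thus measurable in all 9 testes, and *Kpna6*ΔIBB/ΔIBB replicate 3 was 18.8-fold above the other 8 (16.2 to 21.8). The 8 lymphocyte markers summed to 18.8 CPM in that library and to between 14.3 and 21.7 CPM in the others.

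*Adam7*, a membrane protein of the ADAM family without protease activity that moves from the duct onto sperm, had 5, 2 and 1 counts in WT, 0, 12 and 549 in *Kpna6*ΔIBB/ΔIBB and 3, 1 and 1 in *Kpna6*-/- libraries. *Ly6f*, a GPI-anchored protein of the Ly6 family, had 0, 0 and 0 counts in WT, 0, 2 and 76 in *Kpna6*ΔIBB/ΔIBB and 1, 0 and 0 in *Kpna6*-/- libraries. These genes had the largest shares in *Kpna6*ΔIBB/ΔIBB replicate 3 of the 10, 95.4% and 96.0%. For *Ly6f* the ratio to the other 8 libraries, 184, rests on 3 counts in all of them and has a counting interval of 60.6 to 912.

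The remaining genes encode small proteins with inhibitor domains. *Spink8*, a Kazal-type serine protease inhibitor, had 29, 24 and 9 counts in WT, 30, 74 and 777 in *Kpna6*ΔIBB/ΔIBB and 101, 43 and 34 in *Kpna6*-/- libraries. It had the smallest share in *Kpna6*ΔIBB/ΔIBB replicate 3, 67.3%, and every mutant library was above every WT library when scaled to CPM. How many of all genes show this order was not counted. *Spink2*, the acrosomal relative made by germ cells, was at 235 CPM in *Kpna6*ΔIBB/ΔIBB replicate 3 and between 224 and 275 CPM in the others.

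*Wfdc13* and *Wfdc15b* encode proteins of the whey acidic protein family. *Wfdc13* had 8.5, 12.9 and 8.8 counts in WT, 9.6, 13.9 and 315.2 in *Kpna6*ΔIBB/ΔIBB and 23.5, 6.3 and 3.1 in *Kpna6*-/- libraries. *Wfdc15b* had 2, 2 and 0 counts in WT, 0, 1 and 159 in *Kpna6*ΔIBB/ΔIBB and 9, 3 and 2 in *Kpna6*-/- libraries. *Wfdc13* thus had a low level in all testes, whereas *Wfdc15b* exceeded 3 counts in *Kpna6*ΔIBB/ΔIBB replicate 3 and *Kpna6*-/- replicate 1 alone.

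Per length, as TPM values, the order of the levels in *Kpna6*ΔIBB/ΔIBB replicate 3 was another than by counts. *Cd52* led with 112 TPM, followed by *Spink8* with 81.3 TPM and *Crisp1* with 77.0 TPM. *Wfdc15b* had 24.3, *Wfdc13* 16.2, *Rnase12* 13.4, *Npy* 10.6 and *Adam7* 6.99 TPM, and *Ly6f* (5.70 TPM) and *Ltf* (5.49 TPM) were lowest. With 1 library at this level the neighbours in the order cannot be compared against a spread between mice. In the other 8 libraries *Cd52* had a median of 5.54 TPM and *Spink8* one of 3.20 TPM, and the medians of the other 8 genes were 0.547 TPM or less.

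The counts fell on known protein-coding transcripts. In *Kpna6*ΔIBB/ΔIBB replicate 3, all counts of 5 of the genes were on 1 transcript, and the lowest share of the leading transcript was 67.7%, for Wfdc15b-202. With a match of at least 100 bases at 95% identity, 9 of the 10 genes shared no sequence with a transcript of another gene. The exception was *Cd52*, whose Cd52-203 transcript overlaps *Crybg2* on the other strand. However, 99.5% of the *Cd52* counts in *Kpna6*ΔIBB/ΔIBB replicate 3 were on Cd52-201, which has no such match. Shorter matches were not counted. *Wfdc13* has 1 transcript, but its counts were not whole numbers, unlike those of *Crisp1*, *Npy* and *Rnase12*. Whether some of its reads were shared with another transcript was not tested.

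The choice of the genes set no direction between *Kpna6*-/- and WT testes, and this contrast was tested with edgeR's quasi-likelihood test over 18681 genes. Of these genes 1.6% were called at an adjusted P-value below 0.05 (299 genes, with 92 to 518 when 1 library was left out). Only 2 of the 10 members, *Cd52* and *Spink8*, passed the filter on low counts, and 0 of these were called, with 1 at an unadjusted P-value below 0.05. DESeq2 called 1 of the 2, beside 2.55% of all genes, and limma called 0, beside 0.171% to 0.177%. Without the filter edgeR called 1 of the 10, beside 2.37% of all genes. In each case the called gene was *Spink8*. With neither the filter nor 1 of the libraries, alternatives chosen after seeing the data, edgeR called between 0 and 2 members, *Spink8* and *Crisp1*. The share of all genes called in those fits was between 0.922% and 4.63%.

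For *Spink8* the mean level was 2.10 ± 1.35 CPM in *Kpna6*-/- and 0.698 ± 0.335 CPM in WT testes (SD, n = 3 each). The groups did not overlap. Those of *Wfdc15b* did not either when scaled to CPM, at 9, 3 and 2 counts in *Kpna6*-/- against 2, 2 and 0 in WT. The share of all genes without overlap was not counted, so nothing is read from this for *Spink8* or *Wfdc15b*. The log2 fold change was 1.57 with an SE of 0.44 (edgeR adjusted P-value 0.106), and it was 0.91 without *Kpna6*-/- replicate 1 (edgeR adjusted P-value 0.438). A two-sided exact permutation test of the CPM values gave P = 0.1, the smallest value that 3 against 3 testes allow. The adjusted P-value was 0.0201 with DESeq2 and 0.0145 in edgeR without the filter, over a range of 7.98e-05 to 0.567 in all alternatives run.

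For *Cd52* the level was 1.12 ± 0.0316 CPM in *Kpna6*-/- and 0.815 ± 0.418 CPM in WT testes (SD, n = 3 each), and the groups overlapped. The log2 fold change of 0.45 had an SE of 0.33 (edgeR adjusted P-value 0.584). The 8 members that did not pass the filter had between 0 and 12.9 counts in WT. In *Kpna6*-/- libraries they had between 0 and 23.5 counts, apart from the 112 of *Crisp1* in replicate 1. Differences of a few counts were not detectable at this depth.

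In the contrast of *Kpna6*ΔIBB/ΔIBB with WT, which the choice of the genes used, 17.7% of 18797 genes were called higher by edgeR, and *Crisp1*, *Cd52*, *Spink8* and *Wfdc13*, the 4 members that passed the filter, were among them. Nothing is read from that count. Without *Kpna6*ΔIBB/ΔIBB replicate 3, 1 of the 4 was called higher, *Spink8*, with a log2 fold change of 1.32, beside 16.2% of all genes, and the median log2 fold change of the 4 fell from 3.56 to 1.02. With WT replicate 1, 2 or 3 left out, 1, 0 and 0 of 5 tested members were called higher, beside 16.3%, 12.9% and 13.9% of all genes.

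Of the 10 members, *Kpna6*-/- replicate 1 was next highest in 5, *Kpna6*ΔIBB/ΔIBB replicate 2 in 4 and WT replicate 1 in 1. To compare the mix of the genes, counts were set against *Crisp1* in the 3 libraries with at least 50 *Crisp1* counts, a limit set after the values were seen. The intervals cover counting error only, each library is 1 mouse, and 18 such ratios were set against that of *Kpna6*ΔIBB/ΔIBB replicate 3 without adjustment, so the ratios describe these libraries and give no test between mice or genotypes. In *Kpna6*ΔIBB/ΔIBB replicate 3 there were 25.5 *Adam7* counts per 100 *Crisp1* counts (95% exact counting interval 23.2 to 28.1). *Kpna6*ΔIBB/ΔIBB replicate 2 had 22.6 (11.0 to 42.9), and the intervals overlapped. *Kpna6*-/- replicate 1 had 2.68 (0.544 to 8.03), from 3 *Adam7* and 112 *Crisp1* counts, and its counting interval did not overlap that of *Kpna6*ΔIBB/ΔIBB replicate 3.

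Against *Kpna6*ΔIBB/ΔIBB replicate 3, the intervals of 2 of the 9 genes lay above in *Kpna6*ΔIBB/ΔIBB replicate 2 (*Cd52* and *Spink8*). In *Kpna6*-/- replicate 1, the interval of *Spink8* lay above and that of *Adam7* below, and the other 7 overlapped. *Spink8* had 36.1 counts per 100 *Crisp1* counts in *Kpna6*ΔIBB/ΔIBB replicate 3 (33.3 to 39.2), 140 in *Kpna6*ΔIBB/ΔIBB replicate 2 (96.8 to 203) and 90.2 in *Kpna6*-/- replicate 1 (68.2 to 119). *Cd52* and *Spink8* also have up to 38 and 43 counts in the 6 libraries that hold few *Crisp1* counts, and that level is part of these ratios.

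**Figure D2:**
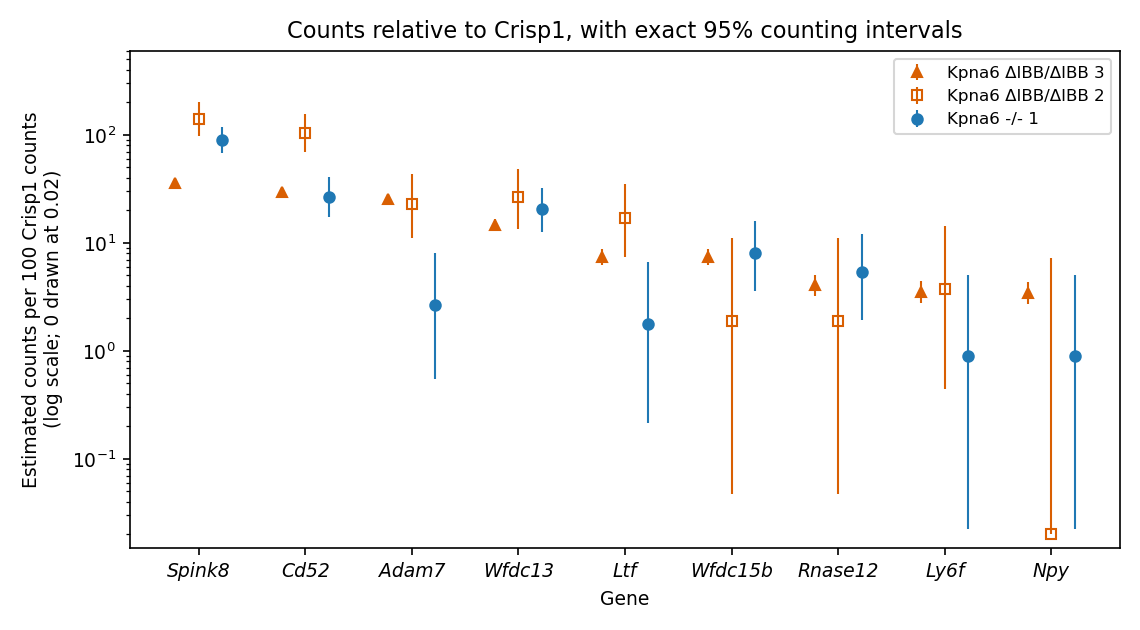
Estimated counts of 9 genes per 100 *Crisp1* counts (log axis) in the 3 libraries with at least 50 *Crisp1* counts, with exact 95% counting intervals as bars. *Adam7* in *Kpna6*-/- replicate 1 (2.68) is the value below *Kpna6*ΔIBB/ΔIBB replicate 3 (25.5) whose counting interval does not overlap, with the spread between mice not included.

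Concentration in 1 library was not limited to the members, whose list does not hold all such genes. Of 20563 genes with at least 30 counts over the 9 libraries, 41 had more than 50% of their CPM in *Kpna6*ΔIBB/ΔIBB replicate 3, the 10 members and 31 others. Each of the other 8 libraries held between 1 and 6 such genes. Above 80%, the numbers were 18 in *Kpna6*ΔIBB/ΔIBB replicate 3, 7 of them members, and between 0 and 3 in the others.

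**Figure D3:**
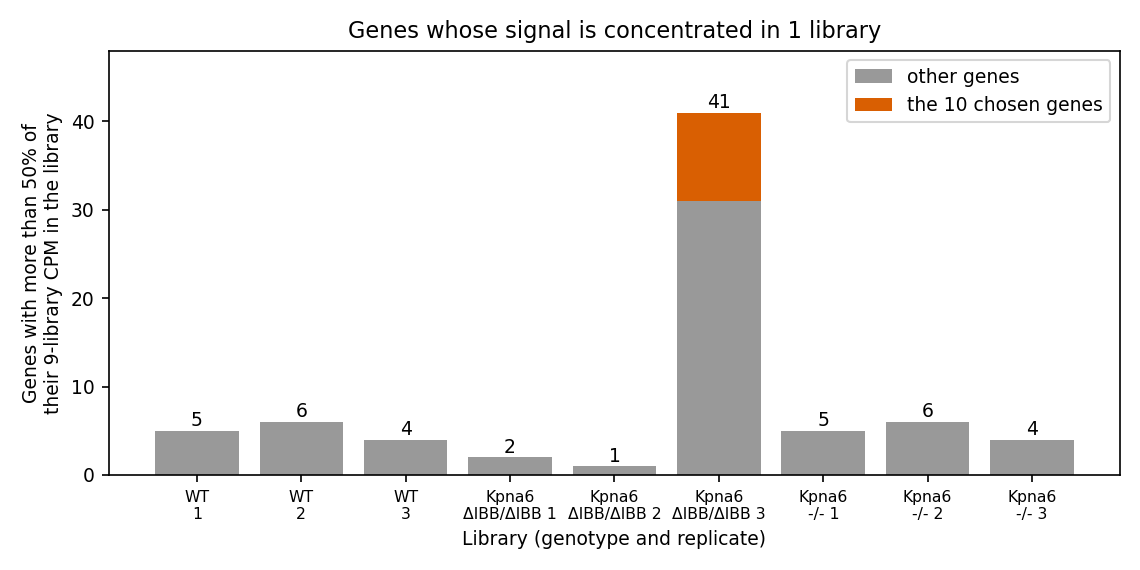
Number of genes with more than 50% of their 9-library CPM in 1 library, for each library, with the 10 chosen genes in orange. *Kpna6*ΔIBB/ΔIBB replicate 3 holds 41 such genes and the other libraries between 1 and 6.

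The 15 genes most like the members in this share, over 9 libraries, were *Defb38*, *Bsph2*, *Defb39*, *Rnase9*, *Defb22*, *Ly6l*, *Pate1*, *Gm21634*, *Defb40*, *Defb28*, *Defb37*, *Eddm3b*, *Abcb5*, *Defb26* and *Cwh43*. Their shares ran from 98.0% for *Defb38* to 71.8% for *Cwh43*. Beta-defensins, small antimicrobial peptides of the duct, made up 7 of the 15. *Defb22*, which coats sperm, had 347 counts in *Kpna6*ΔIBB/ΔIBB replicate 3 and at most 9 elsewhere. *Defb28* had 333 counts there, and its next highest value, 25, was in *Kpna6*-/- replicate 1. *Gm21634* is a pseudogene in the repeated part of chromosome Y, and its counts are uncertain because near-identical copies share reads.

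Genes of the same tissue were then taken from lists of duct genes. Of 38 such genes 25 had at least 30 counts over the 9 libraries, and 4 of these had more than 50% of their CPM in *Kpna6*ΔIBB/ΔIBB replicate 3. They were *Rnase9*, *Bsph2*, *Wfdc16* (199 counts against 9 to 14) and *Cuzd1* (1392 against 94 to 181), the last pair named after their values were seen. *Ces5a*, a carboxylesterase secreted by the duct that was also picked after its values were seen, had 27.1 CPM in this library and between 3.54 and 5.69 CPM in the others.

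In the list of the initial segment and caput, *Lcn5*, *Lcn6* and *Ovch2* had 0 counts in all 9 libraries, which allows up to 3 counts, or 0.121 CPM in the least deep library. *Gpx5*, *Lcn8* and *Spag11b* had 0 counts in *Kpna6*ΔIBB/ΔIBB replicate 3 and *Lcn9* and *Lcn10* had 1 each (all 8 were picked after their values were seen). Of the 19 genes of this list, 8 had 3 counts or fewer in *Kpna6*ΔIBB/ΔIBB replicate 3. Of these, 5 had 3 counts or fewer in all 9 libraries. *Lcn8*, *Gpx5* and *Lcn9* had at most 5, 5 and 6 counts in the other 8. Low counts of these genes were thus not particular to *Kpna6*ΔIBB/ΔIBB replicate 3. The level in this library was the highest of the 9 for 6 of the 19 genes, against 7 of 19 in the list of other duct genes. Among the 6 were *Rnase9* and *Serpina1f*, a serpin of the caput, with 7.01 CPM against 1.07 to 2.26 CPM elsewhere. The others of the 6 were *Lcn12* (16 counts against at most 10), *Crisp4* (1.29 against at most 1.18 CPM), *Spag11a* (4 counts) and *Lcn10* (1 count). How many of all genes were highest in this library was not counted, so nothing is read from these numbers.

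**Figure D4:**
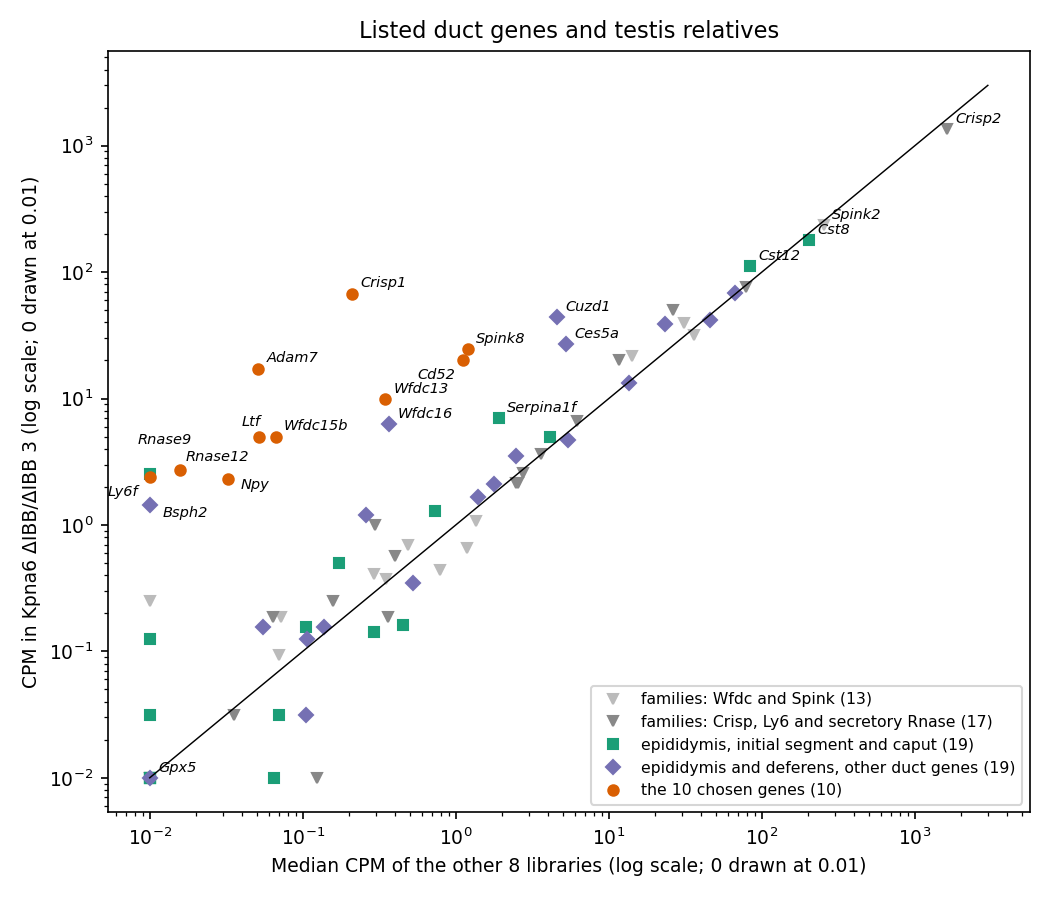
CPM in *Kpna6*ΔIBB/ΔIBB replicate 3 against the median CPM of the other 8 libraries (both log axes, 0 drawn at 0.01) for the 10 genes, both lists of duct genes and testis relatives, with the line of equality. The 10 genes lie above the line, *Crisp2* and *Spink2* near it, and *Gpx5* at 0 on both axes.

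*Cst8*, a cystatin also made by spermatids, had 180 CPM in *Kpna6*ΔIBB/ΔIBB replicate 3, the lowest of the 9, and 193 to 225 CPM in the others, and *Aqp9*, a water channel, had 68.1 CPM against 64.6 to 78.8 CPM. In *Kpna6*-/- against WT testes, 1 of 7 tested genes of the initial segment and caput list was called higher and 0 lower, with a median log2 fold change of 0.04. Of the other duct genes, 2 of 12 tested were called higher and 0 lower, with a median of -0.05. Over all genes tested the median was 0.00, and 0.889% were called higher. The called genes were *Cst12* (log2 fold change 0.42, SE 0.07, edgeR adjusted P-value 0.0155), *Wfdc10* (0.38, SE 0.08, edgeR adjusted P-value 0.0306) and *Wfdc6a* (0.42, SE 0.09, edgeR adjusted P-value 0.0466). *Cst12* had 111 CPM in *Kpna6*ΔIBB/ΔIBB replicate 3 and between 58.0 and 133 CPM in the other 8, so that its signal was not that of the members. Its counts were 2155, 1806 and 1595 in WT, 3487, 3912 and 3538 in *Kpna6*ΔIBB/ΔIBB and 2355, 2702 and 2216 in *Kpna6*-/- libraries.

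The listed relatives of the members in the *Wfdc*, *Spink*, *Crisp*, *Ly6* and *Rnase* families were rarely concentrated in this library. There, 1 of 13 in the former pair of families and 0 of 17 in the others had more than 50% of their CPM. The 1 was *Spink5*, with 8 counts there, named after its values were seen. These family lists do not hold *Rnase9* (93.9%), *Ly6l* (92.0%) and *Wfdc16* (68.1%), relatives that were concentrated in this library. The 13 listed *Wfdc* and *Spink* relatives summed to 332 CPM in *Kpna6*ΔIBB/ΔIBB replicate 3 and to between 324 and 361 CPM in the other 8 libraries. Of the 9 tested in *Kpna6*-/- against WT, 2 were called higher, *Eppin*, a sperm-coating inhibitor with a whey acidic protein domain (log2 fold change 0.51, SE 0.07), and *Wfdc1* (log2 fold change 0.81, SE 0.09), and 0 lower. The 17 listed *Crisp*, *Ly6* and *Rnase* relatives summed to 1526 CPM in *Kpna6*ΔIBB/ΔIBB replicate 3 and to between 1508 and 1877 CPM in the others, and 0 of 11 tested were called.

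Markers of other cells that a testis sample can hold mostly lay within the range of the other libraries. In *Kpna6*ΔIBB/ΔIBB replicate 3 the 6 clear cell markers summed to 14.4 CPM, within the 10.8 to 19.8 CPM of the other 8 libraries. Of this sum 11.4 CPM were *Atp6v1b1* alone. The 5 basal cell markers summed to 35.5 CPM (19.8 to 36.1 in the others), of which 30.4 CPM were *Itga6* alone. However, *Krt5* had 36 counts against 1 to 9 and *Krt14*, picked after its values were seen, 7 against 0. The 9 markers of efferent ducts and rete testis summed to 31.5 CPM, just above the 25.6 to 29.998 CPM of the others, and included *Krt18*, also picked after its values were seen, with 59 counts against 7 to 19.

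The 8 adipocyte markers summed to 29.3 CPM (22.6 to 52.9 in the other 8 libraries), the 8 seminal vesicle markers to 6.82 CPM (3.42 to 8.88) and the 7 smooth muscle markers to 345 CPM (319 to 359). The 5 erythroid markers summed to 43.0 CPM (35.1 to 71.4) and the 8 macrophage markers to 110 CPM (79.2 to 126). Among cells of the testis itself, the 8 Leydig cell markers summed to 893 CPM (796 to 1357) and the 10 Sertoli cell markers to 1292 CPM (915 to 1568). The 7 spermatocyte markers summed to 1124 CPM (1146 to 1329) and the 8 markers of elongating spermatids to 13746 CPM (15283 to 20353). Both sums were below those of all other libraries. Of the spermatocyte sum 474 CPM were *Piwil1* alone. *Piwil1*, *Spo11* and *Meioc* were below all other libraries, and *Sycp1*, *Sycp3*, *Hormad1* and *Dmc1* lay within their range. Of the spermatid markers, *Gapdhs* alone lay within that range (1094 CPM against 1077 to 1477). In *Kpna6*ΔIBB/ΔIBB against WT, edgeR called 8 of 8 elongating spermatid markers lower and 10 of 10 Sertoli cell markers higher. Of 7 spermatocyte markers, 1 was called higher and 2 lower. Beside them, of all 18797 genes tested, 3327 (17.7%) were called higher and 3547 lower. Before scaling, all 3 *Kpna6*ΔIBB/ΔIBB libraries had fewer counts of *Tnp1*, *Odf1*, *Gapdhs* and *Smcp* than every WT and *Kpna6*-/- library. For these genes the lower level was thus not that of replicate 3 alone. Counts of *Prm1*, *Prm2*, *Tnp2* and *Akap4* overlapped between the genotypes. The part of the listed cell types in the level of the 10 genes was not tested.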

How the data were processed

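RNAseq tables of 9 whole mouse testes (3 WT, 3 *Kpna6*ΔIBB/ΔIBB and 3 *Kpna6*-/-) were used. The study's methods describe poly-T selection of RNA. For every transcript the authors deposited an estimated count, without normalization between samples, and a TPM value, which has 1 fixed total per library. The submitters' processing notes name kallisto 0.45, whereas the study's methods name another version, and the build was mm10. Which version gave the values used here is not known. The release of the transcript set and the strand setting are not given in the sources used here. Of 96626 transcripts, 95301 were assigned to 32035 genes by identifier (GENCODE M21, GRCm38), and both values were summed per gene. Depth was between 24859751 and 31484692 counts on genes.

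The members and gene lists were chosen with earlier results of these data known. CPM values are counts scaled by TMM factors over the 9 libraries. Rounded counts were filtered with filterByExpr, scaled by TMM and tested by quasi-likelihood in edgeR 4.0.16 (R 4.3.3), on the 6 samples of each contrast, with Benjamini-Hochberg adjustment over all genes tested and a threshold of 0.05. This test replaced the sleuth test of the study, which needs resampled counts that were not used here. Counting intervals are exact (Clopper-Pearson) at 95%. P-values measure the spread between the samples, which the study describes as biological replicates.

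Alternatives were no filter, DESeq2 1.42.0, scaling by library size only, all 9 samples in 1 fit, the replicate number as a block, limma 3.58.1 on log2(TPM + 1) and log2(TPM + 0.1), and each library left out. For the share of the leading library they were TPM, CPM by library size only, estimated counts, protein-coding transcripts only and leaving out *Crisp1*. Genes named were the 10 members, the 15 others with at least 30 counts and the largest share in the leading library, and from each list up to 4 genes with the highest mean CPM and those called in *Kpna6*-/- against WT. The text says where a gene was named after its values were seen. On simulated data with 200 changed genes among 18515, in the contrast of *Kpna6*-/- with WT, edgeR recovered 200 and called 5 others. The changed genes were drawn from well-counted genes only, with a small spread that was the same for all genes. The simulation therefore does not show how well changes of the members, most of which had few counts, would be found. Shared sequence was sought with blastn 2.17.0+. Tables were handled in Python with pandas and numpy.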

Additional observations from a re-analysis of the deposited data

How the results depend on the processing

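The share of the members' summed CPM in the leading library was 82.6%, and 78.1% with TPM, 83.9% with estimated counts (Wilson 95% interval 82.9% to 84.8%) and 77.4% without *Crisp1*. The interval covers counting error only and not the spread between mice, and the share describes the choice of the genes. With each library left out it ran from 31.7% to 87.5%. The lowest value is that without *Kpna6*ΔIBB/ΔIBB replicate 3, when *Kpna6*-/- replicate 1 leads.

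In *Kpna6*-/- against WT, 299 genes were called, and 624 without the filter on low counts, 477 with DESeq2, 32 with limma on log2(TPM + 1) and 33 on log2(TPM + 0.1). The count was 518, 135 and 145 without WT replicate 1, 2 and 3, and 92, 113 and 180 without *Kpna6*-/- replicate 1, 2 and 3. Members called were 0 and became 1, *Spink8*, without the filter, with DESeq2 and with the replicate block. The shares of all genes called in these fits were 2.37%, 2.55% and 1.23%. With the filter kept, 0 members were called when any library was left out, beside 0.484% to 2.74% of all genes. The log2 fold changes of *Spink8* and *Cd52* kept their direction under every alternative run. Leaving out 1 library without the filter, alternatives chosen after seeing the data, gave between 0 and 2 members, beside 0.922% to 4.63% of all genes. *Spink8* and *Crisp1* were both called without WT replicate 1, WT replicate 2 or *Kpna6*-/- replicate 3 (*Crisp1* at edgeR adjusted P-values of 0.000585, 0.0337 and 0.00108), *Spink8* alone without *Kpna6*-/- replicate 2, and 0 without WT replicate 3 or *Kpna6*-/- replicate 1. Without the filter *Crisp1* had a log2 fold change of 2.71 (edgeR adjusted P-value 0.0652), and without *Kpna6*-/- replicate 1 as well, one of -0.48. The cause of these moves was not tested.

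In *Kpna6*ΔIBB/ΔIBB against WT, whose values chose the members, the counts describe that choice and test nothing. They were 4 of 4 (17.7% of all genes called higher), 10 of 10 without the filter (12.6%), 2 with DESeq2 (15.2%), which gave no adjusted P-value for the others, and 0 with limma on log2(TPM + 1) (20.9%) or log2(TPM + 0.1) (20.8%). With 1 library left out the count ran from 0 to 5, beside 12.7% to 16.3% of all genes called higher. Without the filter as well, the count was 10, 9 and 7 of 10 without WT replicate 1, 2 and 3, and 9, 10 and 2 of 10 without *Kpna6*ΔIBB/ΔIBB replicate 1, 2 and 3 (7.68% to 12.7% of all genes called higher).

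Samples with the same replicate number share only a number. Their deviations from the group means correlated between -0.05 and 0.09, and not every sample correlated best with its own number. The replicate block gave 229 genes (1.23%) in *Kpna6*-/- against WT, and 1 member there. In *Kpna6*ΔIBB/ΔIBB against WT it gave 3 members, beside 17.4% of all genes called higher. Depth limits the members at a few counts per library, and 3 per group allow no exact P-value below 0.1.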
